A study of Homo sapiens with 3 samples.

Results

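Heterochromatin is the compact, largely silent fraction of chromatin. Its central mark is methylation of histone H3 on lysine 9, which methyltransferases such as SETDB1 and SUV39H2 place and which heterochromatin protein 1 (HP1) reads. HP1 is encoded by CBX5 (HP1 alpha), CBX1 (HP1 beta) and CBX3 (HP1 gamma). TRIM28, the corepressor of KRAB zinc finger proteins, brings SETDB1 and HP1 to target sites. HP1BP3, an HP1 binding protein related to linker histones, and the linker histone variant H1-10 bind between nucleosomes.

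These 8 genes were followed through the chromatin occupancy of FOXM1, a transcription factor of the forkhead family that activates genes of cell division. The cells were Huh7, a line established from a human hepatocellular carcinoma, and were not treated. Occupancy was measured by ChIP-seq, in which DNA fragments pulled down with an antibody (here G-5 against FOXM1) are sequenced and stretches with more fragments than the local background are called as peaks. The series held 3 samples, which were 1 input library, whose peaks were not analysed here, and 2 antibody libraries numbered replicate 2 and replicate 3. All shared the same line and lack of treatment. The labels do not say whether the antibody libraries came from separate cultures, and no library with another antibody or without FOXM1 was there to compare, so whether a peak is specific to FOXM1 was not tested.

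A peak was assigned to a gene when its summit lay inside the gene or within 5 kb of it, with gene positions from RefSeq on GRCh38. All 8 genes were found by symbol among 19974 protein-coding genes. They held 9 of the 8271 peaks of replicate 2 and 7 of the 11502 peaks of replicate 3. The genes were chosen by peak calls and fold values seen in these same lists, HP1BP3 for its high fold, so their peaks are described and not tested. Each peak carries the authors' fold enrichment, a linear ratio of fragments at the summit over the local background, and the authors' −log10 q. A locus was called shared when peaks of both libraries overlapped by at least 1 bp.

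Of the 8 genes, 3 had a shared locus (HP1BP3, H1-10 and TRIM28), against 25.5% of all protein-coding genes by the same rule. CBX1 had a peak in each library without overlap. CBX3 had peaks in replicate 2 alone and SUV39H2 had a peak in replicate 3 alone. CBX5 and SETDB1 had no peak in either list. In each library 5 of the 8 genes had a peak, beside 33.3% of all protein-coding genes in replicate 2 and 41.3% in replicate 3. A gene without a peak may still hold weaker signal, since the lowest −log10 q listed was 1.32 in replicate 2 and 1.31 in replicate 3.

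The promoters that these results turn on are shown 5′ to 3′ from RefSeq (GRCh38.p14), as the 250 bases that end just before the annotated start. HP1BP3 has 2 listed starts, 641 bp apart, and both are given because its stronger peak lies at the inner start and its weaker peak at the outer start. H1-10, SUV39H2 and CBX1 had summits at or close to their listed start, and CBX5 is given as a gene with no peak. Capitals mark matches to the motifs named after the sequences.
HP1BP3 inner start (chr1:20786667-20786916, minus strand): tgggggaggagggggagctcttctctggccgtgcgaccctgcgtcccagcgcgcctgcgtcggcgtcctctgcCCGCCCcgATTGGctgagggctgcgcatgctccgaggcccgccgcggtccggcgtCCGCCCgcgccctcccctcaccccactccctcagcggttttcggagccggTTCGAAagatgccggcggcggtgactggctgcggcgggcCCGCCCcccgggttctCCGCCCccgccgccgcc
HP1BP3 outer start (chr1:20787308-20787557, minus strand): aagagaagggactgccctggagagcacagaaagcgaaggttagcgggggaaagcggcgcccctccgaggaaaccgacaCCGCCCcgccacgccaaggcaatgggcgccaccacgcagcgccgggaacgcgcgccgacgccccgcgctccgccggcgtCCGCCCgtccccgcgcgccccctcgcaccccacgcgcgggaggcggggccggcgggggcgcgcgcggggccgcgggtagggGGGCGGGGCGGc
H1-10 (chr3:129316287-129316536, minus strand): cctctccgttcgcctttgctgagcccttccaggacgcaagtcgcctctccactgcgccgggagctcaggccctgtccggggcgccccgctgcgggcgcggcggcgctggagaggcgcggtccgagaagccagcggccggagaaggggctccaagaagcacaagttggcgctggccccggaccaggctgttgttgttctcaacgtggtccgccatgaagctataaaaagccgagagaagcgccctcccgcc
SUV39H2 (chr10:14878616-14878865, plus strand): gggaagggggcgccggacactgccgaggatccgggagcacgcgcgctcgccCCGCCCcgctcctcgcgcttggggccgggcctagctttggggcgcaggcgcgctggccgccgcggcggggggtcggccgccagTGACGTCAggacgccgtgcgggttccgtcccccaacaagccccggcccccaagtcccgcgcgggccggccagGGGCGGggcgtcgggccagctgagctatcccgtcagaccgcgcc
CBX1 (chr17:48101187-48101436, minus strand): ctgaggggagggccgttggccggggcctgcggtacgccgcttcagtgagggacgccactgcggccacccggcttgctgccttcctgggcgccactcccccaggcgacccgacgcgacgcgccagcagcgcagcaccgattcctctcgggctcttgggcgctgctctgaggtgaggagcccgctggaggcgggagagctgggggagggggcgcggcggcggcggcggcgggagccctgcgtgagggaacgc
CBX5 outermost start (chr12:54280123-54280372, minus strand): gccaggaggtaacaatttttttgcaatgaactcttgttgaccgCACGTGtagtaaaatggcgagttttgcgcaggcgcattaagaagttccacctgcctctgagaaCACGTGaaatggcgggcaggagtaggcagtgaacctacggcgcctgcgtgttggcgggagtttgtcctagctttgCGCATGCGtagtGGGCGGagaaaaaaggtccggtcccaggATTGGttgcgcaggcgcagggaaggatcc

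Motifs were searched on both strands of the whole promoter window, which runs on for 50 bases from the start and is not printed there. The set of RefSeq promoter windows used here held 11 such windows for 7 of the genes. It is incomplete, with none for TRIM28 and none on chromosome 8, so a missing window or start is a gap of this set. The forkhead letters GTAAACA and ATAAACA were in none of the 11 windows, against 5.82% of 22132 windows of protein-coding genes. The absence says only that these letters are not in these windows.

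The cell cycle homology letters TTTGAA and TTCGAA, known from promoters of genes of late cell cycle phases, were in 13.7% of all windows. HP1BP3 held TTCGAA from position -72 to -67 relative to its inner start, and SUV39H2 held TTTGAA from base 3 to 8 after its start. CCAAT, the letters bound by NF-Y, was in 34.6% of all windows and was found before the inner start of HP1BP3, as its reverse complement, and at CBX5. The GC box GGGCGG was in 56.3% of all windows and in windows of 4 of the 7 genes (HP1BP3, SUV39H2, CBX3 and CBX5). It occurred 4 times before each start of HP1BP3, and at the outer start 2 of the copies overlap.

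Other letters were each found at 1 or 2 of the genes. The cyclic AMP response element TGACGTCA (2.26% of all windows) and the YY1 letters AAGATGGCG (2.42%) were found at SUV39H2. The NRF1 letters CGCATGCG (2.50%) and the E-box CACGTG (8.34%) were found at both genes without a peak, CBX5 and SETDB1. The ETS letters CCGGAAG (12.8%) were found at CBX3 and SETDB1. Of the E2F letters TTTGGCGC and TTTCCCGC (2.80%), TTTGGCGC spanned the start of CBX3. The windows of H1-10 and CBX1 held none of the letters searched. A match describes sequence and is not evidence of a bound site.

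HP1BP3 carried the strongest peak of the group. At the locus chr1:20786448-20786975 fold enrichment was 7.76 in replicate 2, rank 5 of 8271 peaks, and 6.85 in replicate 3, rank 17 of 11502 peaks. By −log10 q (23.7 and 18.8) the ranks were 8 and 14. The summit rested on 61 fragments in replicate 2 (exact Poisson 95% interval 46.7 to 78.4) and 54 in replicate 3 (40.6 to 70.5). Local backgrounds were 5.80 and 6.0 in scaled units, in which 1 fragment counts as 0.848 in replicate 2 and 0.869 in replicate 3. These fragment numbers, backgrounds and scales were rebuilt from the deposited fold and p. The intervals of the fragment numbers cover counting error only. The intervals of the libraries overlap.

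The position of this peak matched the inner start of HP1BP3 rather than the outer one. Summits lay 26 bp before the inner start in replicate 2 and 59 bp before it in replicate 3, 33 bp from each other, and 615 and 582 bp inside the gene from the outer start. A separate and weaker shared locus covered the outer start (chr1:20787065-20787495). It had fold 3.29 in replicate 2 and 3.64 in replicate 3, on 26 and 25 fragments, with summits 149 and 62 bp inside that start. Both values are below the library medians of 3.76 and 3.78, and the inner start had the higher fold in both libraries. The peak lists do not show which start gives rise to transcripts.

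**Figure D1:**
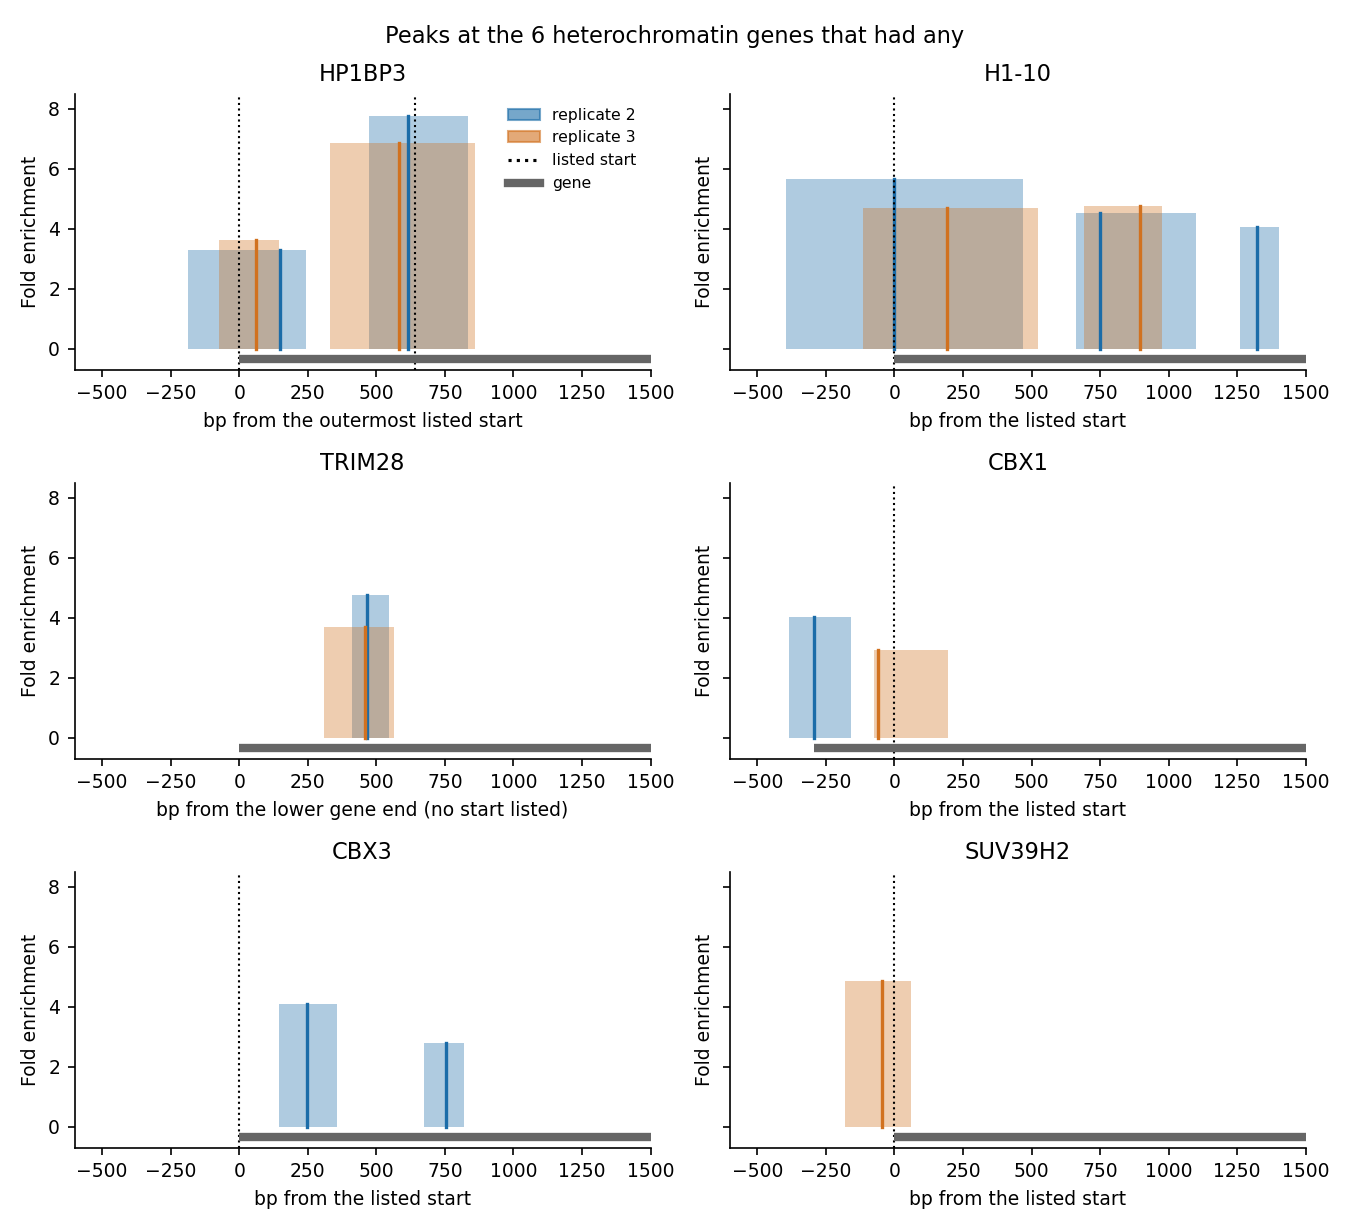
Peaks at the 6 genes that had any, as shaded blocks from peak start to end with height equal to the authors' fold enrichment (linear) and a vertical line at the summit, against distance in bp from the listed start (for TRIM28, from the lower gene end). HP1BP3 shows a tall block of both libraries (7.76 and 6.85) at its inner start and a low one (3.29 and 3.64) at its outer start, while the CBX1 blocks of the libraries do not touch.

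H1-10 is a short gene of 1516 bp, and its peaks covered much of it. The locus over its start (chr3:129315761-129316683) had fold 5.65 in replicate 2 and 4.69 in replicate 3, on 34 fragments (exact Poisson 95% interval 23.5 to 47.5) and 26 fragments (17.0 to 38.1). In replicate 2 the summit lay 1 bp before the start, and in replicate 3 it lay 191 bp inside the gene. A further shared locus lay inside the gene (chr3:129315186-129315623), with fold 4.52 and 4.75 and summits 748 and 895 bp from the start. Replicate 2 alone had an additional peak of fold 4.07 near the far end of the gene, 1322 bp from the start. HP1BP3 and H1-10 were thus the 2 of the 8 genes with more than 1 shared locus, which 5.66% of all protein-coding genes had. At each of these genes the loci lie next to each other. Summits of the libraries were 33 and 87 bp apart at the HP1BP3 loci and 192 and 147 bp apart at the H1-10 loci. All H1-10 peaks also lay within 5 kb of the noncoding gene H1-10-AS1, and to which gene they belong was not tested.

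TRIM28 had 1 shared locus (chr19:58544373-58544628), 465 bp from the lower end of the gene in replicate 2 and 458 bp in replicate 3. The summits were 7 bp apart, against a median of 92 bp over all 5357 shared loci. Fold was 4.75 in replicate 2 and 3.68 in replicate 3, the latter below the library median of 3.78, on 27 fragments (exact Poisson 95% interval 17.8 to 39.3) and 20 fragments (12.2 to 30.9). These intervals overlap. With −log10 q of at least 5 required in both libraries the locus was lost, since replicate 3 reached 3.04, and 2 of the 8 genes then had a shared locus, against 6.36% of all protein-coding genes.

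Among the 3 HP1 genes themselves no shared locus was found, a call that 25.5% of all protein-coding genes had. CBX1 had fold 4.02 in replicate 2 (chr17:48101346-48101571, −log10 q 5.72, 32 fragments) and 2.92 in replicate 3 (chr17:48100992-48101260, −log10 q 1.64, 19 fragments). The replicate 3 call was marginal, since 95.7% of that library's peaks had a higher −log10 q. The peaks were separated by 85 bp, with summits 294 and 60 bp before the only listed start. The gene itself reaches beyond this start. Measured from its upper end, where the minus strand begins, the summit lay 2 bp outside in replicate 2 and 232 bp inside in replicate 3. Both thus lie near the beginning of the gene but not at the same place. Peaks in both libraries without a shared locus were seen at 2.97% of all protein-coding genes.

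At CBX3 replicate 2 had a peak of fold 4.10 (chr7:26201587-26201801, 27 fragments) and one of fold 2.78 (chr7:26202116-26202264, 25 fragments), 246 and 753 bp inside the gene. Replicate 3 listed no peak there. Both also lay within 5 kb of HNRNPA2B1, a gene for an RNA binding protein whose near end is 943 bp from the stronger summit. At CBX5 the nearest peak was 57388 bp from the gene in replicate 2 (fold 2.84, inside SMUG1) and 15932 bp in replicate 3 (fold 3.98).

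The 2 H3 lysine 9 methyltransferase genes of the 8 also lacked a shared locus, a call that 25.5% of all protein-coding genes had. Genes for such enzymes in the wider list below, SUV39H1, EHMT1 and EHMT2, had one, so this is not a result for the class. SUV39H2 had a single peak, in replicate 3 (chr10:14878686-14878925), with fold 4.86 and −log10 q 7.03 on 29 fragments (exact Poisson 95% interval 19.4 to 41.6). Its summit lay 44 bp before the start, and 9.67% of the library's peaks had a higher fold. It was thus not a marginal call, yet replicate 2 listed no peak within 5 kb of the gene. The noncoding gene SUV39H2-DT also lay within 5 kb of this summit. SETDB1 had no peak within 5 kb. Its nearest were 9546 bp away in replicate 2 (fold 4.34) and 9854 bp away in replicate 3 (fold 3.99), both inside CERS2, a ceramide synthase gene. A limit of 10 kb would count them, giving 4 of the 8 genes against 27.9% of all protein-coding genes, while a limit of 1 kb left the count at 3, against 23.1%. Requiring reciprocal overlap of at least 50% also left 3, against 16.9%, and summits within 100 bp left HP1BP3 and TRIM28, against 15.7%.

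Distance to the gene was small for every peak counted. Of the 16 peaks, 13 had their summit inside the gene and the other 3 lay at most 44 bp outside. The nearest peaks beyond the 5 kb limit were at 5460 bp from TRIM28 in replicate 3 (fold 4.24, inside ZBTB45) and at 8092 and 8073 bp from HP1BP3 (fold 4.27 in replicate 2 and 5.68 in replicate 3, inside SH2D5). Of the 14 peaks of genes with a listed start, 10 had their summit within 300 bp of one. Over all peaks on the chromosomes with listed starts, 43.3% in replicate 2 and 41.1% in replicate 3 lay this close to the start of a protein-coding gene. The genes' share has another base, since their peaks were taken only from near genes.

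Ordered by the lower fold of the libraries, HP1BP3 stood first, H1-10 next and TRIM28 last of the genes with a shared locus. The lower HP1BP3 value (6.85) exceeded the higher H1-10 value at its start locus (5.65), and the libraries differed by 0.915 and 0.954 at these loci. The ranges of H1-10 (4.69 to 5.65) and TRIM28 (3.68 to 4.75) overlapped across libraries. Within each library H1-10 was the higher, with 5.65 against 4.75 in replicate 2 and 4.69 against 3.68 in replicate 3, and this difference was not tested. Median fold over the peaks of the 8 genes was 4.10 in replicate 2 (9 peaks) and 4.69 in replicate 3 (7 peaks), beside 3.76 and 3.78 over all peaks. The genes were chosen by calls and fold values of these same lists, so the higher medians say nothing of heterochromatin genes in general.

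**Figure D2:**
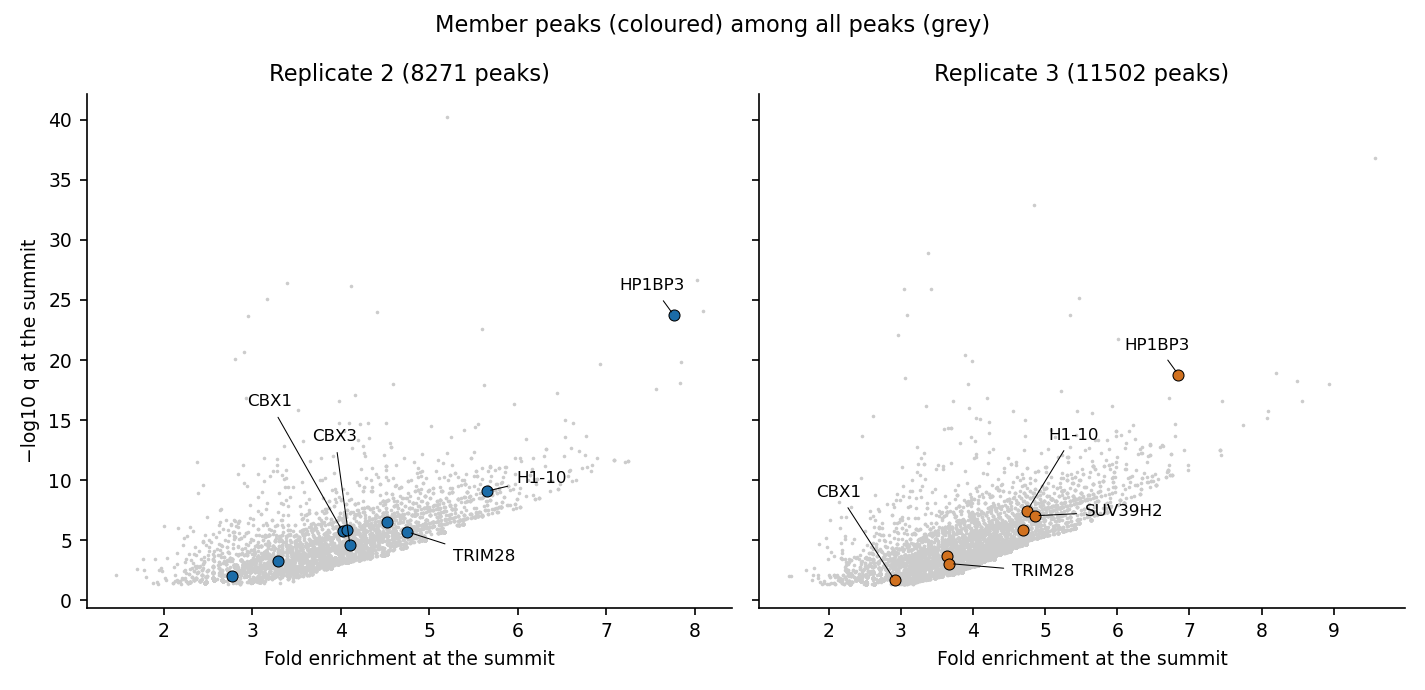
Fold enrichment at the summit (linear, horizontal) against −log10 q (vertical) for every peak of replicate 2 (left, 8271 peaks) and replicate 3 (right, 11502 peaks), with peaks of the 8 genes coloured and the peak of highest fold of each gene named. The strongest HP1BP3 peak stands above and to the right of the main cloud in both panels (−log10 q of 23.7 and 18.8), while the other coloured points lie within it.

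The genes with the values most like those of HP1BP3, by distance in log2 fold over the 2 libraries, were B4GALT7 and TMED9, which share 1 locus (fold 7.55 and 7.45, distance 0.13). PUF60 and SCRIB followed with another common locus (7.21 and 6.47, distance 0.13). This likeness rests on 2 values each. Their −log10 q was lower than at HP1BP3, at 17.6 and 16.6 for the locus of B4GALT7 and 11.5 and 9.91 for that of PUF60.

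The promoters differed in base composition. The genes were chosen by peak calls, and calls rise with GC content over all windows, so the difference is described and not tested. GC content of the window was 78.3% at the outer and 75.3% at the inner start of HP1BP3, and 68.7% at H1-10. Among genes with unshared peaks it was 76.3% at SUV39H2, 75.7% at CBX1 and 60% at CBX3. At the genes without a peak it was 57.3%, 52.7% and 56.7% at the 3 starts of CBX5 and 49.0% and 58.3% at those of SETDB1, all below the median of 62.3% over all windows. The windows of the 5 genes with a peak and a listed start thus all had higher GC content than those of the 2 without a peak.

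All protein-coding windows were also split into 4 bins of near-equal size by GC content. The share with a shared locus within 1 kb of the start was 2.55% in the lowest bin (up to 53.0% GC), 7.01% and 18.7% in the next bins and 46.2% in the highest bin (70.3% GC and above). Both HP1BP3 windows, CBX1 and SUV39H2 fell in the highest bin, H1-10 in the third, and the others in the lower 2. The part of base composition in the calls at these genes was not tested. CpG content, the observed over the expected number of CG pairs, did not order the genes in the same way. It was 1.07 and 0.967 at the HP1BP3 starts and 1.10 at the outermost CBX5 start, which had no peak.

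**Figure D3:**
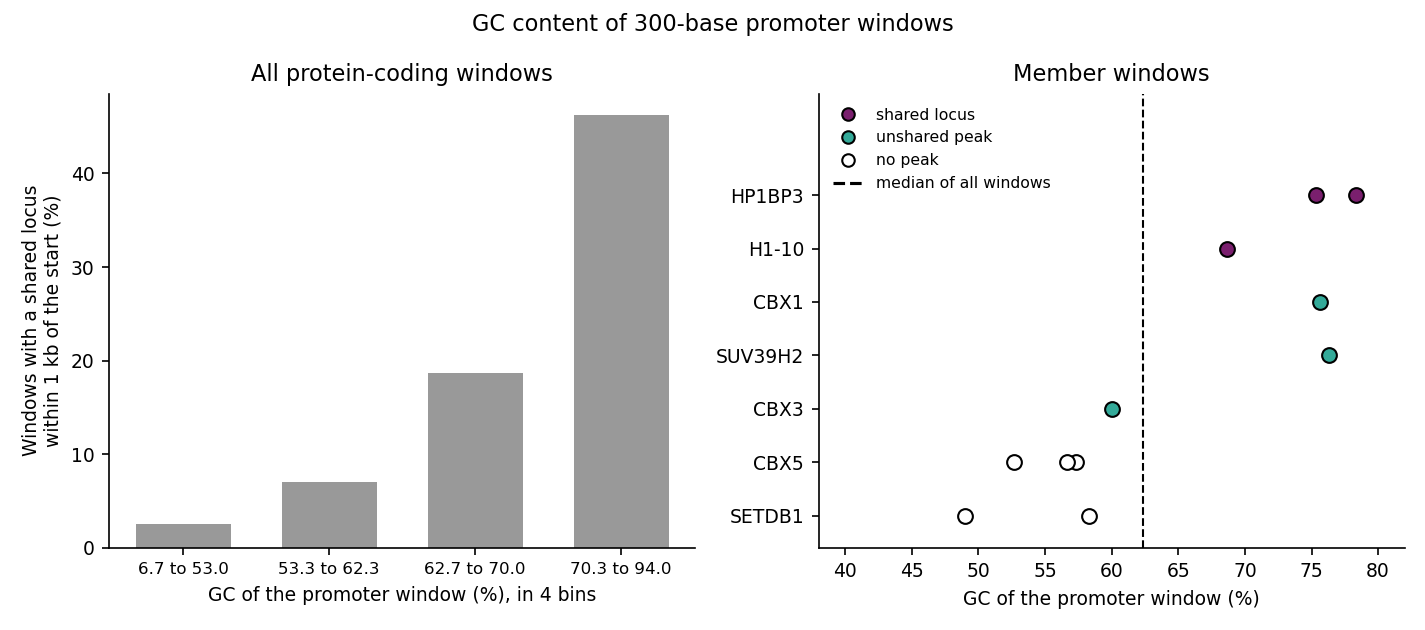
Left, share of promoter windows of protein-coding genes with a shared locus within 1 kb of the start (%), in 4 bins of GC content, from 2.55% to 46.2%. Right, GC content (%) of each listed promoter window of 7 of the genes, filled by call (shared locus, unshared peak, no peak), with the median of all windows (62.3%) dashed; the CBX5 and SETDB1 windows lie to its left and the HP1BP3 windows at the right.

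A wider list of 54 other heterochromatin genes was taken from general knowledge, and all 54 were found by symbol. Of these 25 had a shared locus within 5 kb (46.3%, against 25.5% of all protein-coding genes). The median length of the 54 genes was 55522 bp, against 24171 bp over all protein-coding genes. A longer gene offers more room for a summit, and the part of length in this count was not tested. Counting only loci within 1 kb of a listed start, 14 of 44 genes had one, beside 20.5% of all genes with a listed start. With −log10 q of at least 5 in both libraries 5 of 54 did, beside 6.36% of all.

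The groups by role hold few genes each, and their counts stand beside the same 25.5% of all protein-coding genes; those of the linker histone group (2 of 7), the demethylases (2 of 6) and the HUSH group (1 of 4) lie near it and say nothing particular of these groups. Among the roles, 5 of 7 other chromobox and chromodomain readers had a shared locus, among them the Polycomb genes CBX8 (fold 4.34 in replicate 2 and 4.58 in replicate 3) and CBX2 (4.27 and 4.16), which lie close together on chromosome 17. Of 7 H3 lysine 9 methyltransferases and partners 4 had one. They included SUV39H1, the paralog of SUV39H2, with 4.83 and 4.42, and EHMT2 (3.96 and 4.22) and EHMT1 (3.95 and 5.00), which act mainly in euchromatin. The EHMT2 locus (chr6:31901897-31902040) lay outside the gene, whose upper end is at 31897698, and not within 1 kb of a listed start. SUV39H1 thus had a call in both libraries where SUV39H2 had one in replicate 3.

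Of 3 H4 lysine 20 methyltransferases 2 had a shared locus. KMT5A, which places the first methyl group, had the highest lower fold of the list (5.46 and 5.06, on 26 and 23 fragments). KMT5B had 3.98 and 5.35 with −log10 q of 16.6 and 23.7, on 88 and 85 fragments. Its local backgrounds were 18 and 13 in scaled units. Those backgrounds exceed the medians of 5.0 over all peaks of each library.

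Of 7 linker histone and macroH2A genes 2 had a shared locus, including the replication-dependent linker histone gene H1-4 (4.58 and 5.83). H1-1, H1-3 and H1-5 had no peak. Of 7 genes of DNA methylation and its readers 3 had one. UHRF1, which guides maintenance methylation, had 4.37 and 4.36, and DNMT3A, a de novo methyltransferase, had 4.07 and 5.12.

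Of 13 HP1 partners and chromatin assembly genes 6 had a shared locus, including CHAMP1 (4.28 and 4.03) and the nuclear lamina gene LMNB1 (4.41 and 3.94). Of 6 H3 lysine 9 demethylase genes 2 had one. Of the 4 genes of the HUSH silencing complex and its effector 1 had one, MORC2 (3.65 and 3.83, named after its values were seen), and the other 3 had no peak. None of the 25 reached the lower fold of HP1BP3. That gene was chosen for its high fold, and its locus ranked 4 of all 5357 shared loci by lower fold. The gap thus follows from the choice and says nothing of the wider list.

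**Figure D4:**
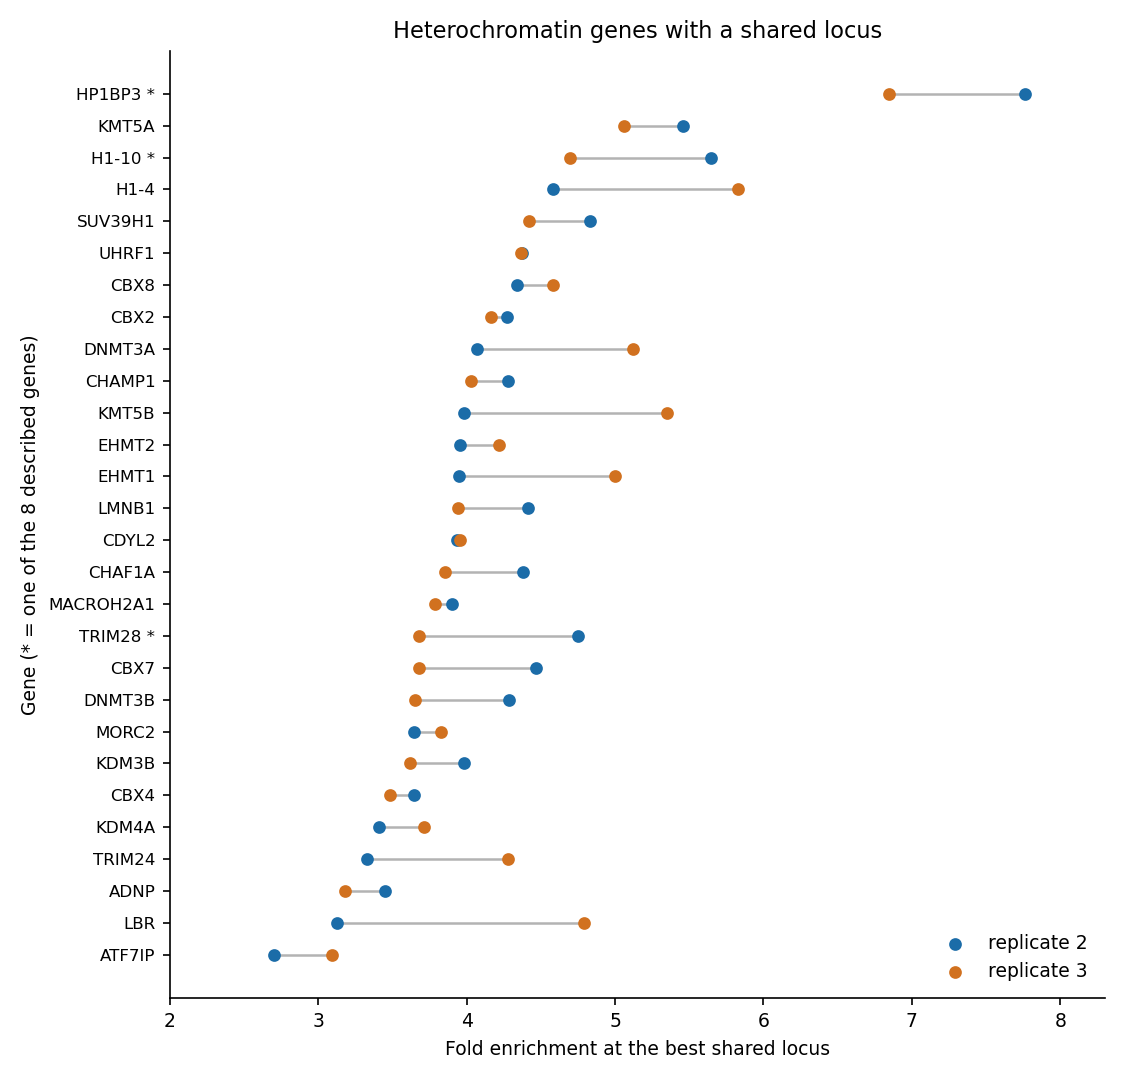
Fold enrichment (linear) at the best shared locus of the 28 heterochromatin genes that had one, in replicate 2 and replicate 3, ordered by the lower of the 2 values, with a line joining the libraries. Starred names are 3 of the 8 genes described. HP1BP3 (7.76 and 6.85), which was chosen for its high fold, stands apart to the right of KMT5A (5.46 and 5.06).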

How the data were processed

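Peaks of the 2 anti-FOXM1 libraries were analysed. CASAVA 1.4, BWA, MACS2 2.2.7.1 and GRCh38 are named in the submitters' processing notes, with no role or order. Settings, duplicate handling and the control library are not given in the sources used here. Peaks stand per library. The deposited lists give fold (a ratio over the local background), −log10 p, −log10 q and a summit offset of another unit. The deposited score, −log10 q times 10, was set aside. The deposited summit lists differed from the peak lists at 0 peaks.

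Fragment numbers at summits were solved from each peak's deposited fold and p, with a pseudocount of 1 and a Poisson tail. A scale on the fragments was fitted per library (0.848 in replicate 2 and 0.869 in replicate 3), and backgrounds are in these scaled units. All peaks (100%) came within 0.001, and 100% of simulated counts were exact in each library. The simulation used the same formula, so it shows that the formula can be solved back and not that the fragment numbers are true. Medians were 26 and 24.5 fragments, and total depth is unknown here.

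Chromosomes 1 to 22 and X were used. Overlapping peaks were merged into shared loci, and the peak of highest fold of each library gave its summit and value. The named genes were the 8 members, the 12 list genes of highest lower fold and the 3 genes nearest HP1BP3 in log2 fold, with ties. Members and lists were chosen with earlier results of these data known, and no test was run. Alternatives were other windows, overlap rules, −log10 q of at least 5, each library alone, −log10 q in place of fold, and a shorter promoter window. One gene of the wider list is not reported here. The count at listed starts was added after seeing the data. Python 3.11.15, numpy 2.4.6, pandas 2.3.3, SciPy 1.17.1 and matplotlib 3.10.9 were used.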

Additional observations from a re-analysis of the deposited data

How the results depend on the processing

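The count of the 8 genes with a shared locus stayed between 2 and 4 under other windows, overlap rules, −log10 q of at least 5 and the count at listed starts. It was 5 with either library left out, where a peak of 1 library was enough. The share of all protein-coding genes was then 41.3% without replicate 2 and 33.3% without replicate 3. A window of 10 kb added SETDB1, and summits within 100 bp removed H1-10. The wider list of 54 genes kept 25 with 10 kb (beside 27.9% of all protein-coding genes) and had 22 with 1 kb (beside 23.1%). Reciprocal overlap of at least 50% left 20 (beside 16.9%), and summits within 100 bp also left 20 (beside 15.7%). The count fell to 5 with −log10 q of at least 5 (beside 6.36%). At listed starts it fell to 14 of 44 (beside 20.5%), where fewer genes could be called. The wider list had 37 genes without replicate 2 and 26 without replicate 3, beside the same 41.3% and 33.3% of all protein-coding genes. Median fold of the genes' peaks in replicate 2 was 4.19 with 10 kb and 4.63 with −log10 q of at least 5, and in replicate 3 it was 4.80 with the latter. By −log10 q in place of fold, the share of peaks ranked above the best peak was 0.0846% and 0.113% for HP1BP3 in replicates 2 and 3, 3.14% and 7.47% for H1-10, 20.8% and 66.7% for TRIM28, and 20.05% and 95.7% for CBX1. It was 36.9% for CBX3 in replicate 2 and 9.43% for SUV39H2 in replicate 3. In the 150 bases around the start, CCAAT, ETS and E-box letters were each found at 1 gene and CRE letters at 0. Over all promoter windows the shares in these 150 bases were 21.95% for CCAAT, 9.38% for ETS, 5.04% for E-box and 1.68% for CRE letters. Each was below its share in the whole window. The 150 bases lie inside that window, so such a share can only stay or fall. The cause of the other shifts was not tested. No paired analysis was possible because no groups of libraries sharing replicate numbers were compared. Of the 16 summits of these genes 14 held 19 to 34 fragments, a depth at which weaker peaks can be missed.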
